A study of Drosophila melanogaster with 12 samples.

Results

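ORC2 binding sites of the larval fat body were compared between 2nd and mid-3rd instar, to find which sites were kept, lost or gained. ORC2 is a subunit of the origin recognition complex (ORC), and it was mapped by chromatin immunoprecipitation and sequencing (ChIP-seq). The deposited lists of these stages hold 4239 and 2053 regions, 6292 of the 6998 regions listed for the series, and 797 and 307 high-confidence peaks, 1104 of 1164. A 2nd instar region with a mid-3rd instar region within 1 kb was called kept, and one without was called lost. A mid-3rd instar region with no 2nd instar region within 1 kb was called gained.

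Both groups were wild-type OregonR males, and they differed by age, at 67 to 68 h and 91 to 92 h after egg laying. Each group had 2 biological replicates of anti-ORC2 ChIP and 2 input libraries. Larvae were pooled for each sample, more of them at the younger age, and the testes were removed by hand. A region is a stretch in which the authors merged the MACS2 peaks of both replicates, and the names of these peaks show how many came from each replicate. A high-confidence peak is one with an irreproducible discovery rate (IDR) under 0.1, where a low IDR marks a peak ranked high in both replicates. The lists hold no read counts or peak heights, so the depth of the libraries is unknown here, and "lost" and "gained" refer only to what passed the authors' threshold. Expression was not analysed here, so the tissue label could not be checked against marker genes.

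ORC marks sites where the replicative helicase can be loaded onto DNA, which makes its binding sites candidates for replication origins. In many organisms ORC lies in open chromatin, often at gene promoters. Larval fat body, the storage and endocrine organ that serves as the insect's liver and adipose tissue, grows by endocycles, in which S phases follow each other without cell division. In the 3rd instar the fat body makes large amounts of larval serum proteins, and ecdysone pulses time the end of feeding.

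Of the 4239 regions at 2nd instar, 1569 were kept at mid-3rd instar (37.0%, 95% Wilson interval 35.6 to 38.5) and 2670 were lost. Of the 2053 mid-3rd instar regions, 481 were gained (23.4%, 21.6 to 25.3). These shares of all regions, 37.0% kept and 23.4% gained, are the background for every group of regions below. Wilson intervals describe the lists and treat regions as independent, which neighbouring regions are not. Kept sites overlapped directly in 1447 of 1569 cases, and 51 kept regions lay near more than 1 mid-3rd instar region. The limit of 1 kb divided few sites, since 20 regions lay within 200 bp inside it and 29 within 200 bp outside it. Most lost regions were not near misses: 185 of 2670 lay 1 to 2 kb from a mid-3rd instar region, and 509 lay more than 50 kb from one. Of the 481 gained regions, 66 lay 1 to 2 kb from a 2nd instar region, while 217 were more than 10 kb from any 2nd instar region.

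The 4 ChIP libraries did not contribute evenly. MACS2 called 4277 and 3831 peaks in replicates 1 and 2 at 2nd instar, and 930 and 1994 at mid-3rd instar. The stages did not overlap, with p = 0.33 in an exact permutation test (two-sided), below which 2 replicates against 2 cannot go. Within the 2nd instar, 65.1% of the regions of replicate 1 also held a peak of replicate 2, and 73.8% the other way. Within mid-3rd instar these shares were 71.2% and 32.0%, so most regions of replicate 2 had no peak of replicate 1. Regions of mid-3rd instar replicate 1 met 2nd instar sites of replicates 1 and 2 in 76.9% and 83.2% of cases. For mid-3rd instar replicate 2 the same shares were 68.8% and 63.1%.

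Sites seen in both 2nd instar replicates were kept more often. Regions with peaks of both 2nd instar replicates were kept in 1117 of 2241 cases (49.8%, 47.8 to 51.9), against 22.1% of 1203 regions from replicate 1 alone and 23.4% of 795 from replicate 2 alone. Seen by class, 71.2% of kept regions and 42.1% of lost regions held peaks of both replicates. Gained regions come from the mid-3rd instar list, so their support was read against the other regions of that list. Only 52 of 481 (10.8%) held peaks of both mid-3rd instar replicates, against 33.7% of the 1572 regions not gained. On replicate 2 alone rested 378 (78.6%), against 54.6% of those not gained. Leaving out mid-3rd instar replicate 2 lowered the kept share to 17.2% and the gained share to 12.6%, while leaving out 2nd instar replicate 1 raised the gained share to 35.6%. With both lists limited to regions of both replicates, 20.5% of 2nd instar regions were kept.

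The number of peaks merged into a region followed the same order. Of regions with 1 peak, 21.8% were kept, rising through 45.6% with 2 peaks and 54.3% with 3 to 4 peaks to 66.7% of 171 regions with 5 or more. A region with more peaks is also wider, so it has more chance of a neighbour within 1 kb, and the part of this in the order was not tested.

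High-confidence 2nd instar peaks were kept more often than regions in general, 521 of 797 (65.4%, 62.0 to 68.6), and 276 were lost. Of the 307 high-confidence mid-3rd instar peaks, 24 were gained (7.82%, 5.31 to 11.4). When the 797 peaks were ordered by IDR and divided into 4 bins of about equal size, 92.5% of the bin with the lowest IDR were kept, then 67.3%, 55.8% and 45.7%. The median IDR was 0.0221 for kept and 0.0567 for lost peaks, and the ranges overlapped almost fully, from 2.4e-06 to 0.0999 and from 3.45e-05 to 0.0992. Without mid-3rd instar replicate 2 the kept share of high-confidence peaks was 43.5%.

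**Figure D1:**
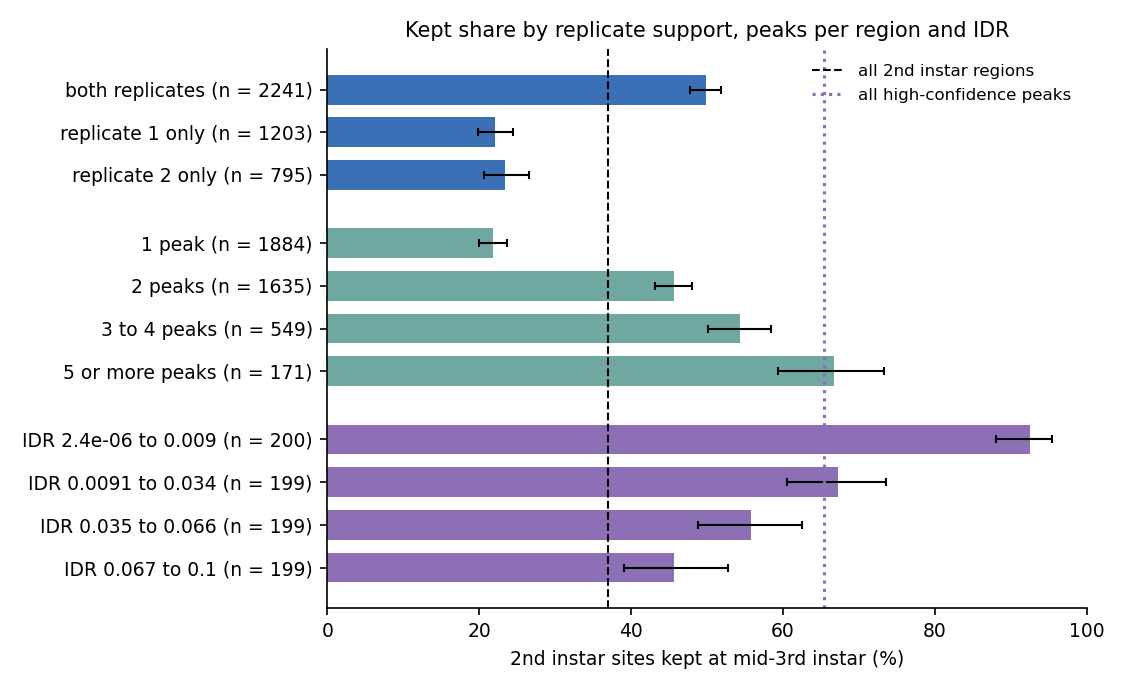
Share of 2nd instar sites kept at mid-3rd instar (x axis, percent), grouped by which replicates had a peak (blue), by the number of peaks in the region (green) and by bins of IDR of the high-confidence peaks (purple). Bars carry 95% Wilson intervals, the dashed line is the 37.0% of all regions and the dotted line the 65.4% of all high-confidence peaks. Kept shares run from 21.8% for single-peak regions to 92.5% for the bin with the lowest IDR.

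**Figure D2:**
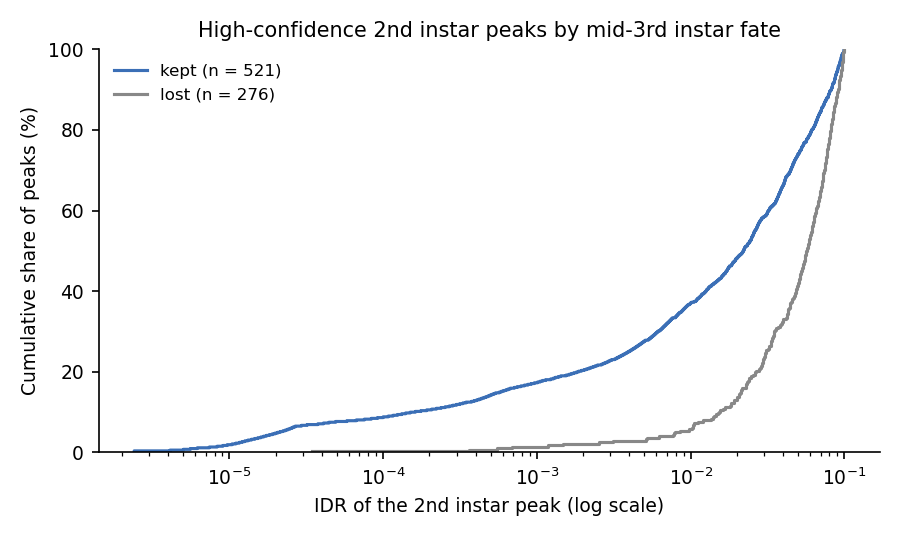
Cumulative share (y axis, percent) of kept and lost high-confidence 2nd instar peaks by IDR (x axis, log scale). The kept curve lies to the left, with medians of 0.0221 and 0.0567, and the lost peaks begin at 3.45e-05.

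Kept regions were wider than lost ones. Over 2 kb wide were 17.1% of kept and 7.38% of lost regions, and 26.3% and 11.5% held 3 or more peaks. Gained regions have mid-3rd instar widths, so they compare with the mid-3rd instar regions that were not gained. Over 2 kb wide were 2.29% of gained regions and 4.13% of those not gained, and 2.49% and 7.32% held 3 or more peaks. Width follows from the number of peaks merged. Each of the 1884 single-peak regions at 2nd instar was exactly 600 bp wide, as were 1400 of 1402 at mid-3rd instar. Widths of merged regions were therefore read as this window plus the distance between the outer summits. Among regions with 1 peak of each replicate, the replicate summits lay a median of 78.5 bp apart at 2nd instar (n = 1534) and 47.0 bp apart at mid-3rd instar (n = 465). Between stages, the summits of 294 matched single-peak regions lay a median of 88.0 bp apart, with quartiles of 31.0 and 327 bp. The 1436 regions that matched one to one had a median width ratio of 0.952, mid-3rd over 2nd instar, and 869 were narrower, 268 wider and 299 equal.

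High-confidence peaks did not have the fixed window of 600 bp, and at 2nd instar they ranged from 296 bp to 6115 bp. How their bounds were set from the 2 replicates is not known here. For 161 pairs matched one to one the median fell from 1017 bp to 697 bp, and the median ratio was 0.721, with 124 narrower and 36 wider at mid-3rd instar. In 131 of these pairs the 2nd instar peak had the lower IDR. IDR comes from the ranks in the 2 replicates of a stage, so this count does not compare the strength of sites between stages. Of the merged regions matched one to one, the 3 widest at 2nd instar were read by name. A region of 11250 bp at Pdp1, a PAR-domain bZIP transcription factor, held 7 and 8 peaks of the 2nd instar replicates and was 600 bp wide at mid-3rd instar. One of 11205 bp at Bsg, the basigin homologue, also went to 600 bp. The third, beside CG7781 and CG14275, went from 9225 bp to 3238 bp. These 3 were picked for their 2nd instar width, so a smaller later width follows in part from that choice and is no finding.

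The 8 kept high-confidence peaks with the lowest IDR that lay within 1 kb of a gene other than a ribosomal RNA gene all had 1 peak in each 2nd instar replicate. The peak between Pi3K92E, the catalytic subunit of a phosphoinositide 3-kinase in the insulin pathway, and Lrrk, a leucine-rich repeat kinase, lay on 3R from 20633870 to 20635835 in Release 6 with an IDR of 1.6e-05. It had 2 and 1 peaks in the mid-3rd instar replicates. At CG6465 on 3R, from 10675115 to 10676119, the IDR was 1.46e-05 and each mid-3rd instar replicate had 1 peak. The same held on chromosome 4 at Gyf, a translational regulator, on 2R at vlc, and on 2L between Ir31a and RpS27A, the ubiquitin and ribosomal protein fusion gene. Another lay near mir-10404-5 on the X, from 23535028 to 23538660, with 2 and 1 later peaks. It is past position 23200802, where the first ribosomal RNA gene of the X starts, with no ribosomal RNA gene of the annotation within 1 kb. Whether this peak belongs to the ribosomal RNA repeats was not tested, so it is not read as a site apart from them. The last was the one inside nAChRalpha3, an acetylcholine receptor subunit, with 0 and 1. Of the peaks named here, all but the nAChRalpha3 peak were high-confidence at mid-3rd instar too.

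Among the lost high-confidence peaks, the one between CG13912 and Trhn, the neuronal tryptophan hydroxylase, stood first. It lay on 3L from 1188745 to 1189641 with an IDR of 3.45e-05 and 1 peak in each 2nd instar replicate, and the nearest mid-3rd instar region was 296126 bp away. The next 7 that lay within 1 kb of a gene other than a ribosomal RNA gene had IDR values from 0.000553 to 0.00515. They lay at beta-PheRS, a phenylalanyl-tRNA synthetase subunit, at TER94, the AAA ATPase of protein quality control, at Pka-C1, the catalytic subunit of protein kinase A, and at Vha55, a subunit of the vacuolar proton pump. The others were at beta-Man, a mannosidase, beside Egfr, the epidermal growth factor receptor, and at CG43739 and sky. Each had at least 1 peak in both 2nd instar replicates and none at mid-3rd instar, and the nearest mid-3rd instar region was 9187 to 90092 bp away. In 5 of these 8 lost peaks the midpoint lay no more than 121 bp from a gene end.

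Gained high-confidence peaks were likewise named only where a gene other than a ribosomal RNA gene lay within 1 kb. The 8 of lowest IDR among these each had 1 peak in both mid-3rd instar replicates and none at 2nd instar. They were slmo, a mitochondrial protein gene (IDR 0.0166), Srrm1, a splicing factor (0.0172), and Mdh1, malate dehydrogenase, beside Cnot4 (0.0241). Ald1, the glycolytic aldolase, followed with an IDR of 0.0296, then Tlk, the tousled-like kinase of chromatin assembly (0.0315), and the Dph2 and Nup93-2 interval (0.0384). Dad, the inhibitory Smad of Dpp signalling (0.0426), and Tet, a DNA dioxygenase (0.0475), completed the set. Their IDR values were all higher than those of the named kept and lost peaks. Those came from larger sets, 521 kept and 276 lost peaks against 24 gained. IDR was also given for each stage apart, and high-confidence mid-3rd instar peaks that were not gained had a median of 0.0409. The named values therefore do not rank gained sites against the others. Tlk, Dad and Tet were gained inside long genes, with midpoints 8602, 5320 and 34632 bp from the nearest gene end, while those at slmo, Srrm1, Mdh1 and Ald1 lay within 28 bp of one.

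By arm, kept shares ran from 34.3% on 2R to 41.5% on 2L, with 37.5% on the X, 48.4% on chromosome 4 and 5 of 16 regions on the Y. The small, heterochromatin-rich chromosome 4 kept all of its 32 high-confidence peaks as regions, and 59 of its 75 regions with both replicates (78.7%). Gained shares ran from 18.1% on 2L and 3L to 24.5% on 2R on the autosome arms, and only 7 of 91 regions on chromosome 4 were gained.

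The X, of which male larvae have a single copy, had the highest gained share, 118 of 280 regions (42.1%, 36.5 to 48.0). It was also the highest in either replicate, 27 of 114 regions (23.7%) in replicate 1 and 104 of 247 (42.1%) in replicate 2. On the autosome arms these shares were 7.33% to 15.7% in replicate 1 and 18.9% to 24.8% in replicate 2. Among regions with both mid-3rd instar replicates, 13 of 81 were gained on the X (16.0%) against 39 of 466 on the autosome arms (8.37%). The share was as high without the ribosomal RNA genes at the end of the X. Before position 23200802, where the first of them starts, 111 of 255 regions were gained (43.5%), and from there on 7 of 25. Of each library's regions, 8.86% and 10.3% lay on the X at 2nd instar and 14.0% and 13.6% at mid-3rd instar. The stages did not overlap on any of the 6 arms, each with an exact two-sided permutation p = 0.33, again the smallest possible, so this does not set the X apart. The shares were also higher at mid-3rd instar on chromosome 4 (3.83% and 3.29%, then 5.26% and 4.51%) and on 2L (22.0% and 21.9%, then 23.4% and 22.7%). They were lower on 2R (21.1% and 19.7%, then 19.5% and 18.8%), on 3L (21.6% and 22.4%, then 17.7% and 19.2%) and on 3R (means of 22.2% and 20.4%).

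**Figure D3:**
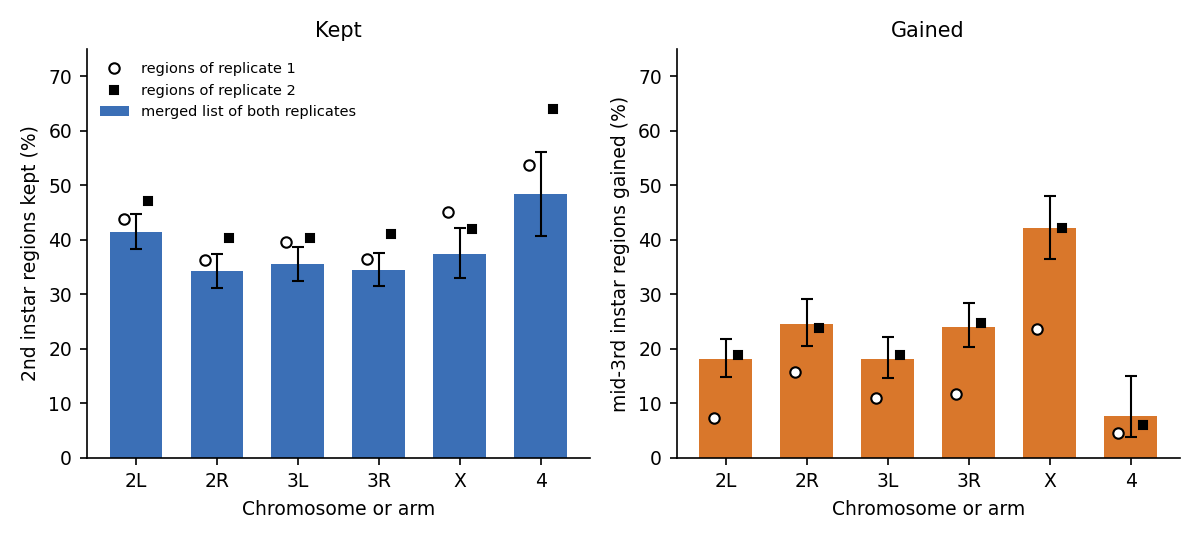
Share of 2nd instar regions kept (left, percent) and of mid-3rd instar regions gained (right, percent) by chromosome arm. Bars with 95% Wilson intervals are the merged lists, circles and squares the regions with a peak of replicate 1 or 2. The X has the highest gained share in the merged list and in either replicate (42.1%, 23.7% and 42.1%), and chromosome 4 the highest kept share (48.4%).

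A larger share of sites was kept toward the centromeres. On the autosome arms 176 of 298 regions within 4 Mb of the centromere end were kept (59.1%, 53.4 to 64.5), against 1148 of 3332 elsewhere (34.5%, 32.9 to 36.1). The difference had the same direction on 2L, 2R, 3L and 3R, with 55.7%, 72.7%, 55.6% and 73.3% near the centromere and 38.1%, 32.2%, 34.1% and 33.9% elsewhere, although 3R had only 15 regions near it. The histone gene array on 2L supplied 30 of the 176 kept regions, 30 of the 98 on 2L. Without it, an alternative added after seeing the data, 146 of 268 regions were kept on the autosome arms (54.5%, 48.5 to 60.3) and 68 of 146 on 2L (46.6%, 38.7 to 54.7). The difference was present in either 2nd instar replicate (64.7% and 66.8%, against 36.8% and 39.9%) and among regions with both replicates (77.0% against 45.3%), and without the array these near shares were 60.2%, 62.4% and 73.3%. In bins of 2 Mb the kept share was 65.3%, 55.0%, 45.5% and 35.4% over the first 4 bins and between 29.4% and 36.5% further out, and the first 2 bins were at 62.4% and 49.1% without the array. Regions near the centromere were less often at gene ends, 49.3% against 61.4%.

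**Figure D4:**
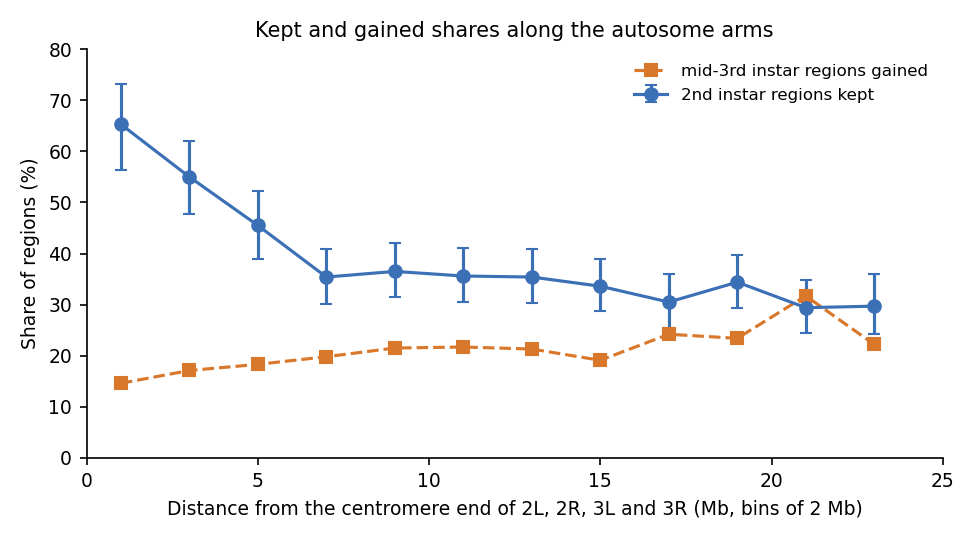
Share of 2nd instar regions kept (circles, with 95% Wilson intervals) and of mid-3rd instar regions gained (squares) on the autosome arms, in bins of 2 Mb from the centromere end (x axis). The kept share starts at 65.3% and is 35.4% in the fourth bin, while the gained share starts at 14.6%. The histone gene array is included.

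Runs of neighbouring regions with the same fate were read by locus. The longest unbroken run of kept regions, 30, was the histone gene array on 2L. The next lay near the centromere of 2R, 19 regions from 3304067 to 4243522, all with peaks of both 2nd instar replicates, in a stretch with uex, RNASEK and IntS3. A run of 13 followed on the same arm, from 4618618 to 5251437, which includes Nipped-B, the cohesin loader, and Nipped-A, a subunit of the SAGA and Tip60 complexes. The longest lost run was 26 regions on 3L from 630592 to 1489326, 12 of them with both replicates, spanning emc, a helix-loop-helix inhibitor, trio and bab2. On 3R, 19 regions in 233.3 kb were lost from 9338855 to 9572164, at Ras85D, the Ras GTPase, by and mura among others, and 17 were lost on 3L from 7081881 to 7654964. Gained runs were shorter: 9 at the 5S ribosomal RNA genes, 7 on 2L in 69.0 kb around Pgk and daw, all from replicate 2 alone, and 7 on the X from 16786768 to 17143548, 6 of them from replicate 2.

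Gene ends were annotated in Release 6 without strand, and with neither exons nor UTRs, so either end of a gene was used. The midpoint lay within 1 kb of a gene end in 1005 of 1569 kept regions (64.1%, 61.6 to 66.4), 1477 of 2670 lost regions (55.3%, 53.4 to 57.2) and 314 of 481 gained regions (65.3%, 60.9 to 69.4). Within 200 bp of an end lay 38.6%, 32.8% and 45.1%. Gained regions come from the mid-3rd instar list, of which 65.8% lay within 1 kb and 45.1% within 200 bp of an end. By these shares, gained regions were no closer to gene ends than their own list. Lost regions lay more often inside genes and over 1 kb from their ends, 37.6%, against 25.6% of kept and 25.2% of gained regions. By library, 61.5% and 58.0% of 2nd instar regions and 66.1% and 65.8% of mid-3rd instar regions lay near an end. These did not overlap (exact two-sided permutation p = 0.33, the smallest possible). Among regions with both replicates the kept and lost shares were closer, 65.7% and 59.1%. High-confidence peaks showed 75.6% for kept and 65.6% for lost.

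At the level of genes, 5504 of 17844 (30.8%) had a 2nd instar region within 1 kb and 3202 (17.9%) a mid-3rd instar region. Of the 5504, 2492 (45.3%) still had one at mid-3rd instar, and 710 genes (3.98% of all) had one at mid-3rd instar only. Gene lists chosen for fat body, the endocycle and neighbouring functions were read against these 4 shares. Longer genes meet more regions, and the median gene was 1691 bp long while the median of the ecdysone list was 50703 bp. In 2nd instar replicates 1 and 2 alone, 27.2% and 23.5% of all genes had a region, and in mid-3rd instar replicates 1 and 2 alone 8.25% and 16.0%, which is the background for counts by replicate. The peaks given for a gene are all those of the regions within 1 kb of it. A wide region is counted whole, while narrower regions of the other stage that overlap its far part are not counted, so the peaks of a gene are not matched site by site between stages.

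**Figure D5:**
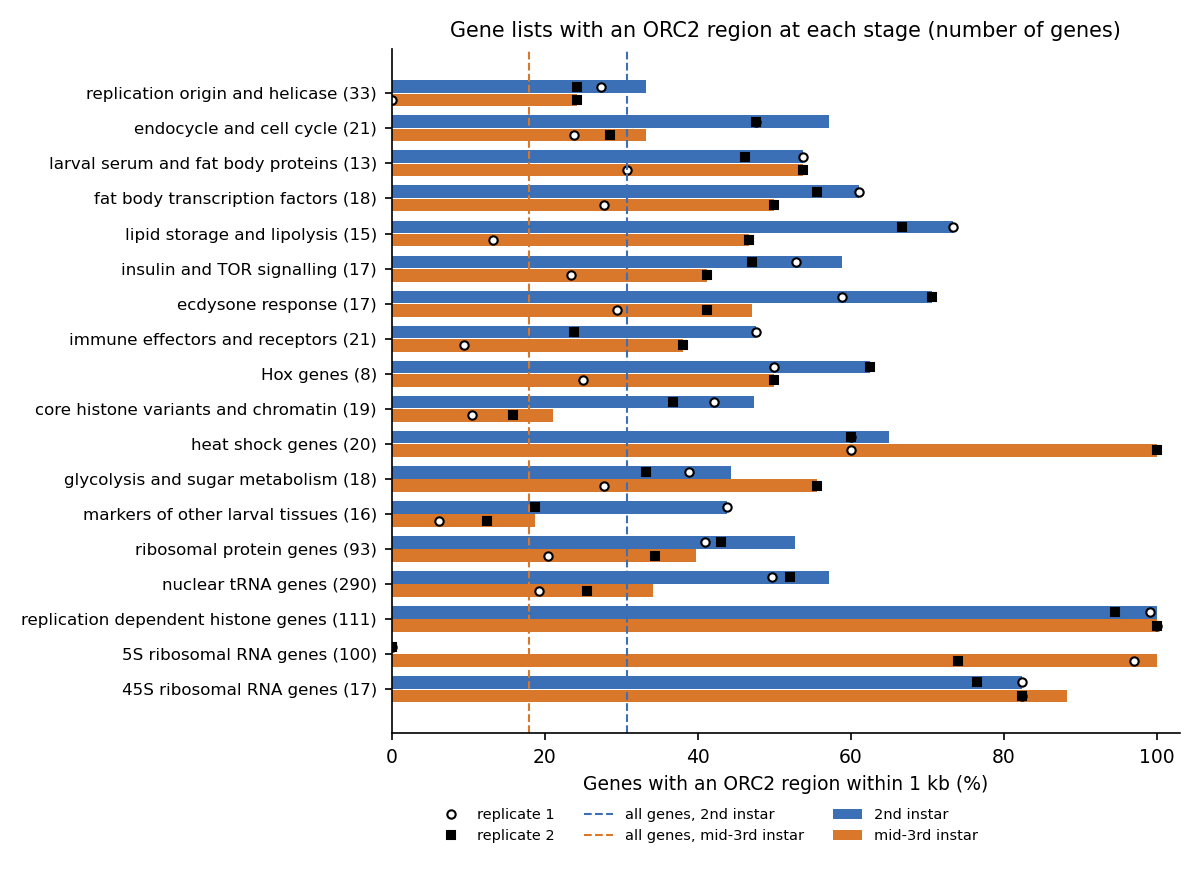
Share of each gene list with an ORC2 region within 1 kb (x axis, percent) at 2nd (blue) and mid-3rd instar (orange), with the number of genes in brackets. Circles and squares give replicates 1 and 2 alone, and dashed lines the 30.8% and 17.9% of all genes. The heat shock, glycolysis, 5S and 45S ribosomal RNA lists have a higher share at mid-3rd instar, the larval serum and histone lists an equal one, and the others a lower one.

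Heat shock genes, whose promoters are kept open by paused RNA polymerase, had the highest share of the lists by symbol at mid-3rd instar. At 2nd instar theirs was 65.0%, below the 73.3% of lipid genes and the 70.6% of ecdysone genes. Of 20, 13 had a region at 2nd instar and all 20 at mid-3rd instar, 12 by replicate 1 and 20 by replicate 2. The 20 genes lie in few clusters and share regions, so the count rests on 12 regions at 2nd instar, 11 of them kept, and 17 at mid-3rd instar, 6 of them gained. The 6 Hsp70 chaperone genes on 3R had regions in both stages, as did Hsp68, Hsp83, Hsc70-4 and Hsc70-5. Hsp70Aa had 1 peak in each of the 4 libraries, in regions that overlapped. Hsp70 genes are near-identical copies, so which copy a read came from cannot be told.

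The small heat shock cluster on 3L changed. The region at Hsp26 and Hsp67Ba, from 9376983 to 9377662, had no 2nd instar peak and 1 in each mid-3rd instar replicate, with the nearest 2nd instar region 3603 bp away. The region between Hsp23 and Hsp27, from 9383464 to 9384085, likewise had 0 and 0 peaks, then 1 and 1. Hsp22, at the other side, had 1 and 1 peaks at 2nd instar and 0 and 1 at mid-3rd instar, in regions 236 bp apart. Hsc70-3, the chaperone of the endoplasmic reticulum, Hsp60A, a mitochondrial chaperonin, and Hsf, the heat shock transcription factor, were gained in replicate 2 alone. Those 3 have no support from replicate 1.

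Glycolysis and sugar metabolism genes had 8 of 18 with a region at 2nd instar and 10 at mid-3rd instar, 5 in replicate 1 and 10 in replicate 2. Near them lay 11 regions at 2nd instar, of which 5 were kept, and 16 at mid-3rd instar, of which 10 were gained. Eno, enolase, had 0 and 0 peaks at 2nd instar and 1 and 2 at mid-3rd instar. Hex-A, a hexokinase, Gapdh1 and Gapdh2, glyceraldehyde-3-phosphate dehydrogenases, and Pgk, phosphoglycerate kinase, had no peak at 2nd instar or in mid-3rd instar replicate 1, and 1, 1, 2 and 2 peaks in replicate 2. Ald1 went from 0 and 1 peaks to 1 and 3, and Tpi, triosephosphate isomerase, from 1 and 1 to 1 and 2. Lost genes were Hex-C, the fat body hexokinase, Tps1, which makes trehalose, and Glys, glycogen synthase. In Glys both 2nd instar replicates had 2 peaks, while Hex-C and Tps1 had peaks of replicate 1 alone.

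Larval serum and other fat body protein genes had 7 of 13 with a region at either stage, but not the same 7. Lsp1alpha, a subunit of the hexameric storage protein LSP-1, had 0 and 0 peaks, then 1 and 1, in 2 gained regions on the X. The one that starts at 12490119 held a peak of replicate 2 alone and the one at 12492123 a peak of replicate 1 alone, so neither region had both replicates. A high-confidence mid-3rd instar peak was nevertheless listed near Lsp1alpha. Its sister subunits Lsp1beta and Lsp1gamma had regions at both stages. At Lsp1beta there were 1 and 2 peaks, then 1 and 1, and at Lsp1gamma 2 and 2, then 1 and 2. Lsp2, with 1 peak, and Fbp2, with 2, were gained in replicate 2 alone. Fbp1, the LSP-1 receptor, was listed at 2nd instar alone, with 1 peak of replicate 1, and Apoltp, a lipid transfer particle protein, with 3 and 1. The lipophorin gene apolpp on chromosome 4 had 11 and 11 peaks, then 9 and 4, and all 5 of its 2nd instar regions were kept.

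Among 33 genes for ORC, helicase loading and replication enzymes, 11 had a region at 2nd instar and 8 at mid-3rd instar. By replicate the shares were 27.3% and 24.2% at 2nd instar and 0.0% and 24.2% at mid-3rd instar. The 2 mid-3rd instar libraries thus disagreed, and only that of replicate 1 lay below both 2nd instar libraries. Near these genes, 5 of 12 regions of 2nd instar were kept and 4 of 8 mid-3rd instar regions were gained. No gene for an ORC subunit had a region at either stage, which also held for 57.6% of this list and 65.2% of all genes. With so few ORC genes this does not set them apart. The helicase subunit genes Mcm2, Mcm3 and dpa each had 1 peak of mid-3rd instar replicate 2 and no other, Mcm5 was lost, and Mcm7 had 1 and 1 peaks, then 0 and 1.

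Of 21 endocycle and cell cycle genes, 12 had a region at 2nd instar and 7 at mid-3rd instar. CycE, the cyclin that drives endocycle S phases, had 1 and 1 peaks, then 0 and 1. At E2f1, its transcriptional activator, there were 3 and 2 peaks and then 1 and 1, in a region that also lies within 1 kb of InR. CycD had 1 peak in every library, and so did Rca1, an inhibitor of the anaphase-promoting complex. Gene fzr, the Cdh1 activator of that complex, which starts endocycles, was the only one of the list at mid-3rd instar alone, with 0 and 0 peaks, then 1 and 2. CycA, CycB, E2f2, dap, Cdk2 and SuUR were listed at 2nd instar alone. CycA had 3 and 1 peaks there, CycB 1 and 1, and E2f2 1 and 1 in 2 separate regions. SuUR had 1 peak of replicate 1 alone, and dap and Cdk2 each had 1 of replicate 2 alone. CycA and CycB are mitotic cyclins, and SuUR promotes underreplication.

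Ecdysone response genes, most of them long, had a region in 12 of 17 at 2nd instar and in 8 at mid-3rd instar. The 60 regions of 2nd instar near them became 20 kept and 40 lost, and 5 of 25 later regions were gained. EcR, the receptor, went from 13 regions to 8, and its peaks from 20 and 17 to 5 and 6. Of the 13, 5 were kept, all between 6138582 and 6169124 on 2R. Eip75B, an early gene, went from 12 regions to 6, each of which overlapped a 2nd instar region, with 17 and 19 peaks, then 2 and 5. Eip74EF, another early gene, went from 4 regions to 5, with 4 and 2 peaks, then 1 and 5. At Eip93F, a factor of late responses, 4 regions with 3 and 3 peaks were lost, and the nearest mid-3rd instar region was 221439 bp away. The partner of EcR, usp, had 1 peak of mid-3rd instar replicate 2 alone.

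Insulin and TOR genes had 10 of 17 with a region at 2nd instar and 7 at mid-3rd instar. The insulin receptor InR had the largest drop in number of regions of the genes in the lists by symbol, from 9 to 1. Its 16 and 10 peaks went to 1 and 1, and the kept region, from 21618439 to 21619837 on 3R, is the one near E2f1. At foxo, the forkhead factor held back by insulin, 8 regions became 2 (10 and 10 peaks, then 1 and 2). Pi3K92E kept its region, with 1 and 1 peaks, then 2 and 1, and a high-confidence peak at both stages.

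Fat body transcription factor genes went from 11 of 18 to 9. Mef2, needed for anabolic and immune gene expression in fat body, lost each of its 6 regions, with 7 and 5 peaks, then none. Hnf4, a regulator of lipid catabolism, went from 7 and 8 peaks to 1 and 4. The GATA factor gene srp, which specifies fat body, had no 2nd instar peak and 2 of mid-3rd instar replicate 2. Among 15 lipid genes the count went from 11 to 7. FASN1, fatty acid synthase, had 6 and 5 peaks, then 7 and 3, and kept its 3 regions, while Desat1, a desaturase, lost 3 regions with 3 and 3 peaks. AkhR, the adipokinetic hormone receptor, lost 2 regions with 2 and 2 peaks. The lipase gene bmm went from 5 and 3 peaks to 0 and 2.

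Immune genes had 10 of 21 with a region at 2nd instar and 8 at mid-3rd instar, where replicate 1 alone had 2. The receptor gene PGRP-LC had 4 and 3 peaks, then 2 and 2, while the antimicrobial peptide genes AttB, AttC, CecC and Drs had peaks of mid-3rd instar replicate 2 alone. Other peptide genes went the other way or had none. AttD, with 1 and 1 peaks and a high-confidence peak, and Dro, with 1 and 0, were listed at 2nd instar alone. AttA had 1 and 0 peaks, then 0 and 1, in a lost and a gained region. CecA1, CecA2, CecB, Def, DptA, DptB and Mtk had no region at either stage. Hox genes went from 5 of 8 to 4. Scr and Ubx had 1 peak in every library and kept their regions. Genes for histone variants and chromatin proteins went from 9 of 19 to 4, and the lost ones included Pc of the Polycomb group and BEAF-32, an insulator protein, each with 1 and 1 peaks at 2nd instar. Of 16 markers of salivary gland, blood cells, neurons, germ line and muscle, 7 had a region at 2nd instar and 3 at mid-3rd instar, namely Hml, NimC1 and vas, all kept. Regions near a gene do not show its expression, and the share of other tissues in these samples was not tested.

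Genes of the translation machinery were covered above the background at both stages. Of 93 ribosomal protein genes, 49 (52.7%) had a region at 2nd instar and 37 (39.8%) at mid-3rd instar, 30 had one at both, and 33 of 59 regions near them were kept. Nuclear tRNA genes, which RNA polymerase III transcribes, had 166 of 290 (57.2%) and 99 (34.1%), and since they lie in clusters these rest on 83 and 45 regions, and 44 of the 83 were kept. Of 32 snRNA genes, most of them for the spliceosome, 17 had a region at 2nd instar and 19 at mid-3rd instar, by either replicate (17 and 16, then 17 and 16), and none of the 12 regions near them at 2nd instar was lost.

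The repeated genes differed from each other. Near the 111 replication-dependent histone genes on 2L, from 21416953 to 21541681, all 30 regions of 2nd instar were kept, and 2 of 27 mid-3rd instar regions were gained. Peaks there numbered 41 and 39 at 2nd instar and 58 and 49 at mid-3rd instar, while each mid-3rd instar library had fewer peaks over all, and high-confidence peaks 13 and 15. Near the 100 genes of 5S ribosomal RNA on 2R, from 19729562 to 19766278, the 2nd instar list had no region. The mid-3rd instar list had 9 regions with 24 and 11 peaks, 3 high-confidence peaks, and 24273 bp covered. Genes of 45S ribosomal RNA had a region in 14 of 17 and then 15. The lists do not tell which copy of a repeated gene a read came from, nor how reads that fit several copies were placed, and the part of this in these counts was not tested.

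The late-3rd instar list took no part in calling regions kept or lost, so it was read as a separate measurement of the same sites. It comes from wandering larvae, for which the methods name neither the sex nor an age in hours. A late-3rd instar region lay within 1 kb of 405 of 1569 kept regions (25.8%), 138 of 2670 lost regions (5.17%) and 29 of 481 gained regions (6.03%). Of the mid-3rd instar regions that were not gained, 403 of 1572 (25.6%) had one, which is the comparison for gained regions. In late-3rd instar replicates 1 and 2 the shares were 8.35% and 22.9% for kept and 3.37% and 2.17% for lost regions. For regions with both 2nd instar replicates they were 32.1% of kept and 6.76% of lost regions. Kept regions were also wider, 17.1% of them over 2 kb against 7.38% of lost regions. A wider region has more chance of a neighbour within 1 kb, and the part of this in these shares was not tested.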

How the data were processed

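The authors aligned paired-end reads of 40 nt with Bowtie2, ran MACS2 on every replicate against its input (q-value under 0.05), merged both replicates into regions, and deposited these lists with high-confidence lists that give an IDR per peak, a value read like a p-value or q-value and under 0.1. Tool versions are not given in the sources used here. The methods and labels name dm3, but positions exceed dm3 and match Release 6, so the lists were read as Release 6 and no coordinates were converted. The library kit version differs between labels and methods. Depth is unknown, and Wilson intervals cover list counts only.

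Positions were compared at 1 kb, as the study did. Genes were 17844 of 17872 entries of the Release 6 RefSeq table. The labels gave the stage of each sample. Replicates were compared with the exact two-sided permutation test, and no test was run over regions. Members, lists and tests were chosen with earlier results of these data known. Named were the 8 peaks of lowest IDR with a gene within 1 kb in each of 3 classes, ribosomal RNA genes left out, the 3 widest matched regions, the 3 longest runs per class, and list members. Some items that this rule names are not reported here. Older symbols were matched through synonyms, among them Hsp67Bb to CG4456. The planned promoter sequences and motifs were not used here. The distance search was tested on simulated data: with 3 sets of partners placed near the 4239 real regions, 0 of 5214 were missed. Alternatives were the distance, replicate support, IDR, chromosomes, gene types and leaving out each replicate. Python 3.11.15, numpy 2.4.6, pandas 2.3.3 and scipy 1.17.1 were used.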

Additional observations from a re-analysis of the deposited data

How the results depend on the processing

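No paired analysis was possible because peak lists were compared by position, with no fit over libraries. With direct overlap in place of 1 kb, 34.1% of 2nd instar regions were kept and 28.6% of mid-3rd instar regions gained, and within 5 kb 51.3% and 15.9%. With regions of both replicates in both lists, 20.5% were kept. High-confidence peaks were kept in 72.9% within 5 kb and in 77.0% at an IDR under 0.05. Leaving out 1 replicate at a time gave 17.2% to 42.9% kept, 12.6% to 35.6% gained and 43.5% to 58.0% of high-confidence peaks kept. The lowest of each was without mid-3rd instar replicate 2, and the highest gained share, 35.6%, without 2nd instar replicate 1. Peaks per replicate differed by 2592, and by 2060 to 3124 without 1 replicate. Within 200 bp of a gene end lay 38.6% of kept, 32.8% of lost and 45.1% of gained regions. The share of all mid-3rd instar regions was 45.1% too. With protein-coding genes alone 59.7%, 51.4% and 59.7% of kept, lost and gained regions lay within 1 kb. Gene end shares without 1 replicate were 63.2% to 66.2%, 54.1% to 58.4% and 64.7% to 68.9%. With both replicates, an alternative added after seeing the data, 59.1% of lost regions lay near a gene end. The cause of these shifts was not tested. The median width ratio was 0.952, 0.979 without regions of 600 bp and 0.721 for high-confidence peaks, the latter also added after seeing the data. Without the histone gene array, likewise added, 46.6% of 2L regions and 54.5% of autosome regions near the centromere were kept.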

Other observations

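The lists limit what can be read from them. They hold neither heights nor read counts, so a site that fell just under the authors' threshold at the later age and one that lost ORC2 altogether cannot be told apart. Of the gained regions, 378 of 481 rest on mid-3rd instar replicate 2 alone, as do 858 of the 1572 other mid-3rd instar regions. The depth of that library is unknown here. Gene distances use outer gene ends without strand, so promoters and 3' ends cannot be told apart. Larvae of both ages were male and pooled, so these data do not cover single animals or females.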
